A study of Mus musculus with 48 samples.

Results

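The cytosolic heat shock proteins described here are 10 genes of the mouse, *Hspa1a*, *Hspa1b*, *Hspa8*, *Hsp90aa1*, *Hsp90ab1*, *Hsph1*, *Hspb1*, *Dnaja1*, *Dnajb1* and *Hsf1*. They were chosen by name, and every probe whose accession belongs to one of these symbols was taken, which gave 18 of the 41174 probes on the array. All 10 genes had a probe, out of 18434 genes named on the array. The study took liver and whole colon from C57/BL6 offspring at 12 weeks of age and hybridised their RNA to 48 Agilent 2-colour arrays (24 per tissue), and every offspring and every dam was fed a high-fat diet. Diet H was supplemented with selenium (Se) and folate to levels severalfold above the recommended requirements, and diet L was marginally deficient in both. A group name gives first what the dam ate during mating, gestation and lactation and then what her offspring ate once weaned, so that HH, HL, LH and LL cross both periods. The study describes the offspring as male and as fasted and then re-fed before sampling. There were 5 HH livers, because 2 of the HH arrays carry the name of one mouse and were averaged, and 6 livers of each other group. Colon RNA came from 6 mice of each of the 4 groups.

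Heat shock proteins are molecular chaperones, which bind unfolded or partly folded proteins in the cytosol and help them to fold, to stay soluble or to be degraded. Proteins of the Hsp70 family take up clients handed over by Hsp40 co-chaperones such as *Dnaja1* and *Dnajb1*, *Hsph1* (Hsp110) exchanges the nucleotide of Hsp70, and Hsp90 completes the folding of kinases and steroid hormone receptors. Heat, oxidants and other proteotoxic stress free the transcription factor Hsf1, which binds arrays of the motif GAA in alternating orientation, and *Hspa1a* and *Hspa1b* are its best known targets, whereas *Hspa8* and *Hsp90ab1* are made at a high rate in unstressed cells. In rodent liver several of these genes also follow the daily rhythm of feeding and body temperature.

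Promoter sequences are shown because most members are known targets of Hsf1 and the results below turn on how far they moved together. RefSeq promoters of the GRCm38.p6 build, 250 bases before to 50 bases after a transcription start, were given for 6 of the 10 members, with 10 starts in all, and none was used here for *Hspa8*, *Hsp90aa1*, *Hsp90ab1* and *Hsf1*. Capitals mark a pair of facing or opposed GAA units, searched as GAANNTTC or TTCNNGAA on both strands, in each of which N is any base. The 5 promoters shown are chr17:34972107-34972406 for *Hspa1a*, chr17:34959189-34959488 for *Hspa1b* and chr5:149636266-149636565 for *Hsph1*, all on the minus strand, and chr5:135887669-135887968 for *Hspb1* and chr4:40722218-40722517 for *Dnaja1*, both on the plus strand.
Hspa1a: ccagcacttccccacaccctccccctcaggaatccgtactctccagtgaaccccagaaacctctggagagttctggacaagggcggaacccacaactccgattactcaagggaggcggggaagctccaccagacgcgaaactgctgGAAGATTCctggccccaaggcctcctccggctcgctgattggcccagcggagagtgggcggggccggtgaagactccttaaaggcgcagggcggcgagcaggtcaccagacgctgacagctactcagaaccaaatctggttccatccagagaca
Hspa1b: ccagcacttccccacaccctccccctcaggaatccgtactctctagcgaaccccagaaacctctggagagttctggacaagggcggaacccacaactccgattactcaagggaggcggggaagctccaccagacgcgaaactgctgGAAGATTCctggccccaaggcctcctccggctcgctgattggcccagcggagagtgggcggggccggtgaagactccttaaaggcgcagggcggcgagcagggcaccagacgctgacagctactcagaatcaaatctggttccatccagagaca
Hsph1: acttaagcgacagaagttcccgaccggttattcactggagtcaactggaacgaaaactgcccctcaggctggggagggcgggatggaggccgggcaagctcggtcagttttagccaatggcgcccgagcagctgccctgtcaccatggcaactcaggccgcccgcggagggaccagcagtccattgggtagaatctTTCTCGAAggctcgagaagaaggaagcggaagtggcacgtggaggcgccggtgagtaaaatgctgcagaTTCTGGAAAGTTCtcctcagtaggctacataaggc
Hspb1: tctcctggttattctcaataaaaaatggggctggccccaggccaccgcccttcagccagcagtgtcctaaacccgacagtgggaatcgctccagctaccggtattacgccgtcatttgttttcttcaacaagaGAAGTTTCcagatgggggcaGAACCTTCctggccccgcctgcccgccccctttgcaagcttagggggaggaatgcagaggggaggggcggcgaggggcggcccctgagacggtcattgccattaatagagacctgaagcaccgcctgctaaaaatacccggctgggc
Dnaja1: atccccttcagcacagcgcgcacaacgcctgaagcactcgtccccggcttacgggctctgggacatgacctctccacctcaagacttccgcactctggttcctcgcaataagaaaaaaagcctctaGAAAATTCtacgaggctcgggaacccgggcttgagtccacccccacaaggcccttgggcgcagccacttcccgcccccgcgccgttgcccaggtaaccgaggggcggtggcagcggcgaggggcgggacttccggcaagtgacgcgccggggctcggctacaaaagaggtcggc
The motif lay 104 bases before the start of *Hspa1a* and of *Hspa1b*, 117 and 97 bases before that of *Hspb1*, and 124 bases before the first start of *Dnaja1*. In *Hsph1* it lay 54 bases before and 15 and 20 bases after the start, and the last 2 overlap in a run of 3 units (TTCNNGAANNTTC). The other 2 starts of *Dnaja1* and both starts of *Dnajb1* held no such letters in this window. Of all 32851 promoters of this length in the table, 15.1% held a pair and 0.603% a run of 3 units, searched as GAANNTTCNNGAA or TTCNNGAANNTTC. The promoters of *Hspa1a* and *Hspa1b* were 98.7% identical, with 4 of 300 bases differing. The genes are near-identical neighbours on chromosome 17, and which of them a probe reads could not be checked, so that their values below are those of the probes named for each. A match is only a description of the letters in the window.

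Values are log2 ratios of mouse RNA (Cy3) over a common reference (Cy5), the opposite direction of the deposited table, and they compare mice for one probe and not one gene with another. Spots well above background in Cy3 made up 55.1 to 66.0% of the liver arrays and 66.8 to 73.7% of the colon arrays. No member probe was saturated, and each was well above background on all 48 arrays except the second probe of *Hspa1b*, which was so on 6 of 24 liver arrays. Each slide carried 1 array of every group of one tissue, so that diets can be compared within slides whereas tissue and slide cannot be told apart. In bulk tissue, fewer cells of a type and less RNA per cell cannot be told apart either. Hepatocyte markers were called lower in colon for 8 of 8 measured genes, and markers of colon epithelium and of smooth muscle were called higher there for 10 of 10 and 10 of 10, as the labels have it. A single LL colon mouse, replicate 6, stood apart, at 1.96 for *Hspa1a* (0.97 by its second probe), 1.36 for *Hsph1*, 1.02 for *Hsf1* and 0.98 for *Hsp90aa1*, and the colon results it bears on most are given with and without it. Some markers of other cells were high in 1 mouse. The mean log2 ratio was 1.22 for pancreatic acinar markers in HL liver replicate 1 and 1.48 for adipocyte markers in LH liver replicate 4. It was 2.34 for leukocyte markers in LL colon replicate 4. Adipocyte markers varied widely among colon mice, with means from 0.84 to 1.96 in HH, 0.10 to 2.18 in HL, -1.35 to 1.72 in LH and -1.44 to 2.61 in LL. The part of all these markers in the results was not tested. *Xist* or the Y-linked *Eif2s3y* went against the male sex in 2 liver and 6 colon mice. In liver LL replicate 6, colon HH replicates 1 and 5 and colon LL replicate 5, only *Xist* was high and *Eif2s3y* was not low. In liver HL replicate 2, colon HL replicate 5 and colon LL replicates 1 and 3, *Xist* was high and *Eif2s3y* low. No LH mouse went against the male sex, so that this trait was not balanced across the diets. The values without all mice against the male sex are given among the alternatives.

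The question of the first comparison was how the members differ between the tissues. *Hspa1a*, the stress-inducible Hsp70, was far higher in colon than in liver. The co-chaperone *Dnaja1* was lower in colon, and *Hspb1*, *Hsp90ab1* and *Hsf1* did not pass the threshold. A probe was called at a fold change over 1.5 with an FDR (Benjamini-Hochberg, limma over all 8 groups) under 0.05. Liver and colon samples entered this fit as separate mice. The study describes colon and liver as excised from its offspring, so that the same mice probably gave both. Mouse names differ between the tissues, however, and the samples could not be matched. Pairing was thus not used, and the intervals and p-values between tissues treat tissues of the same mouse as independent. Of the 18 member probes, 5 were called higher and 4 lower in colon, where 15.6% and 14.5% of the 41171 probes tested were called. Probes of the same gene are not independent, and all those of *Hspa1a*, *Hspa1b* and *Dnaja1* were called. By the main probe of each gene, *Hspa1a*, *Hspa1b* and *Dnajb1* were called higher and *Dnaja1* and *Hsph1* lower. The shares over all genes are given with the lists below. The median difference of colon minus liver was 0.03 over the member probes and -0.01 over all probes. The plot of members by group shows the mice behind these values.

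**Figure D1:**
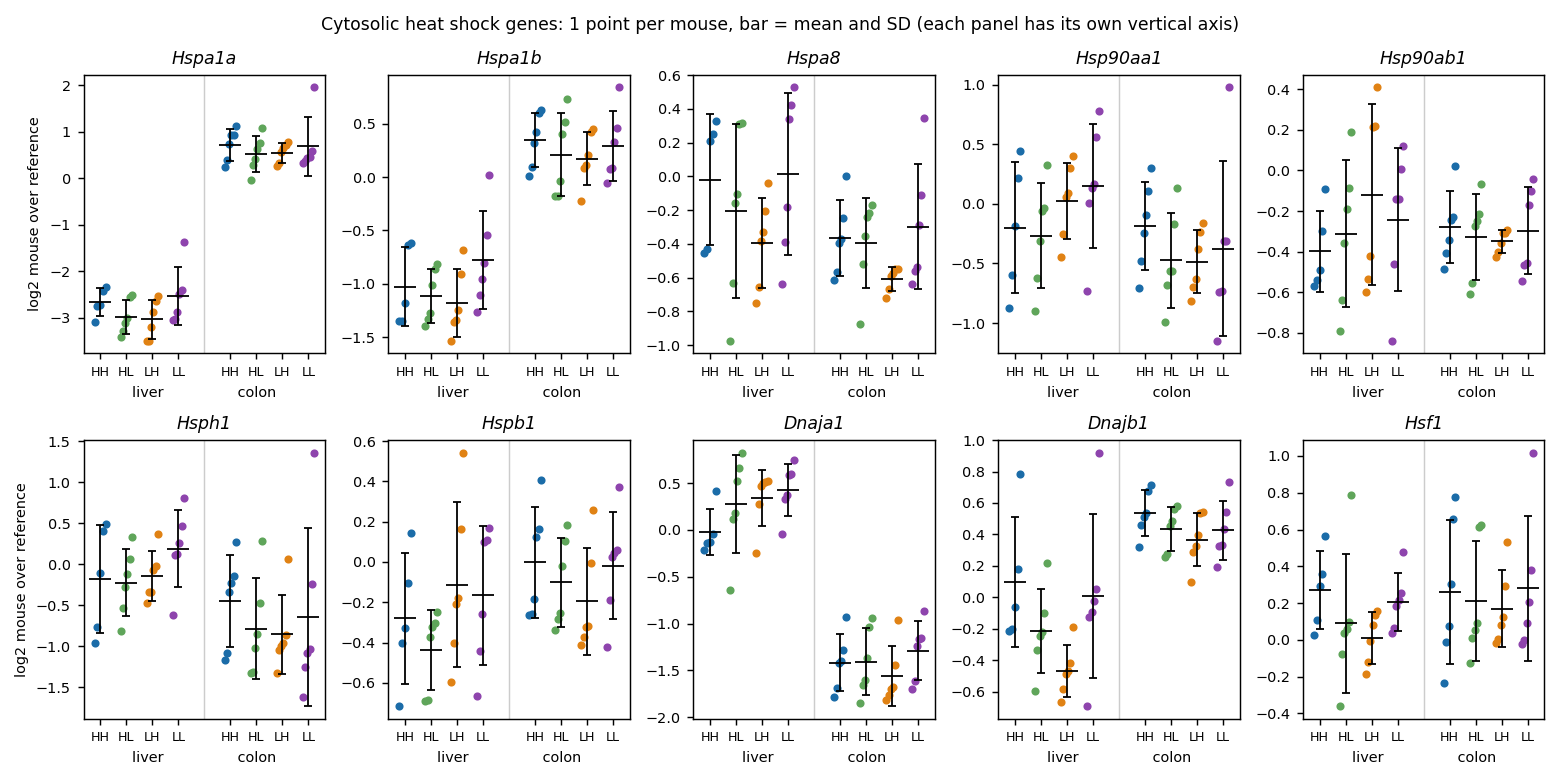
Log2 ratio of mouse over reference (y axis) for the 10 members, 1 panel each, by tissue and diet group (x axis), with 1 point per mouse and a bar at the mean ± SD. *Hspa1a* separates the tissues, with liver mice from -3.50 to -1.38 and colon mice from -0.03 to 1.96, whereas the 4 diet groups overlap in every panel.

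In liver, the log2 ratio of *Hspa1a* was -2.44, -2.74, -2.73, -2.34 and -3.10 in the 5 HH mice. It ran from -3.42 over a median of -3.06 to -2.51 in HL, from -3.50 over -3.03 to -2.54 in LH and from -3.04 over -2.69 to -1.38 in LL. In colon it ran from 0.24 over 0.83 to 1.13 in HH, from -0.03 over 0.52 to 1.08 in HL, from 0.26 over 0.61 to 0.77 in LH and from 0.32 over 0.45 to 1.96 in LL. No liver mouse reached any colon mouse. Colon exceeded liver by 3.43 on the log2 scale (SE 0.12, 95% interval 3.18 to 3.68), which is 10.8-fold (limma adjusted p = 4.7e-28). The second *Hspa1a* probe gave 3.25 (9.51-fold), also without overlap, as did 23.2% of all probes. *Hspa1b*, which encodes nearly the same protein, was at -1.02 ± 0.37 (SD, n = 23) in liver and 0.25 ± 0.30 (SD, n = 24) in colon, a difference of 1.28 (2.43-fold). The liver LL mouse with the highest value, 0.02, reached into the colon range for that probe. The second *Hspa1b* probe differed by 0.68 (1.60-fold) and lay near background in most liver arrays.

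Among the other Hsp70 and Hsp110 proteins the differences were small. *Hspa8*, the constitutive Hsp70, was at -0.16 ± 0.43 (SD, n = 23) in liver and -0.42 ± 0.27 (SD, n = 24) in colon, and the difference of -0.27 (limma adjusted p = 0.015) stayed under the fold threshold. The second *Hspa8* probe gave 0.16 (limma adjusted p = 0.34), with the opposite sign. *Hsph1*, the nucleotide exchange factor of Hsp70, was at -0.09 ± 0.47 (SD, n = 23) in liver and -0.68 ± 0.69 (SD, n = 24) in colon. It was called lower in colon at -0.59 (SE 0.17, 1.51-fold, limma adjusted p = 0.0021), with ranges that overlapped from -0.96 to 0.81. This call lay at the edge of the fold threshold.

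Both Hsp90 genes were near the reference in both tissues. *Hsp90aa1*, the stress-responsive form, was at -0.07 ± 0.46 (SD, n = 23) in liver and -0.38 ± 0.46 (SD, n = 24) in colon, a difference of -0.31 (limma adjusted p = 0.034) under the fold threshold. *Hsp90ab1*, the constitutive form, differed by -0.05 (95% interval -0.21 to 0.11) and its second probe by 0.16 (95% interval -0.07 to 0.38). The signs of *Hspa8*, *Hsp90aa1* and *Hsp90ab1* turned under some other scalings, among them median centring of the arrays, under which the median of all probes was -0.19.

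Of the Hsp40 co-chaperones, *Dnaja1* was lower in colon by all its probes, whereas the probes of *Dnajb1* disagreed. *Dnaja1*, which stimulates the ATPase of Hsp70, was at 0.27 ± 0.37 (SD, n = 23) in liver and -1.42 ± 0.32 (SD, n = 24) in colon. The lowest liver mouse was at -0.64 and the highest colon mouse at -0.86. The difference was -1.67 (SE 0.10, 3.19-fold, limma adjusted p = 3.3e-20), and the other 2 probes of *Dnaja1* gave -2.35 (5.08-fold) and -2.72 (6.60-fold), again with no overlap. *Dnajb1*, the main Hsp40 of the heat shock response, was called higher in colon at 0.59 (limma adjusted p = 8.9e-09), just past the fold threshold. Its second probe gave -0.13 (limma adjusted p = 0.044), so that the 2 probes of *Dnajb1* disagreed in sign. Of the remaining members, *Hspb1* (Hsp27), a small heat shock protein that holds unfolded proteins without ATP, differed by 0.17 (95% interval 0.00 to 0.34) and *Hsf1* by 0.09 (95% interval -0.08 to 0.25).

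**Figure D2:**
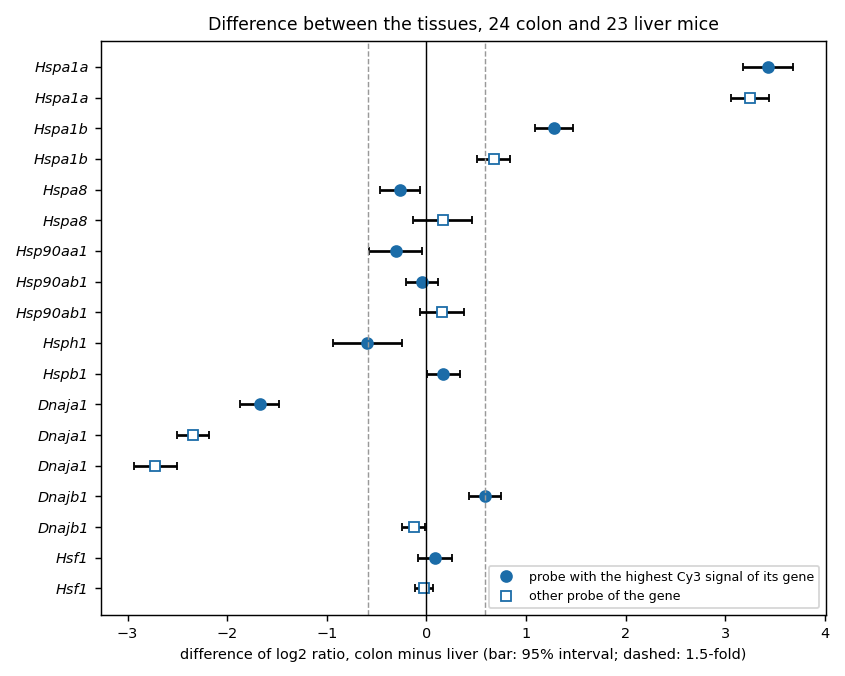
Difference of colon minus liver (x axis, log2 scale) for the 18 member probes (y axis), with the 95% interval of the limma fit as a bar and lines at a 1.5-fold change. The *Hspa1a* probes lie at 3.43 and 3.25 and the *Dnaja1* probes between -1.67 and -2.72, whereas *Dnajb1* has probes on either side of 0.

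Genes that work with the members were taken from lists, which share some genes. Those of the cytosolic chaperone system moved in either direction between tissues, whereas the chaperones called from the endoplasmic reticulum (ER) were all lower in colon. Other cytosolic Hsp70 and Hsp110 genes had 1 of 7 called, *Hspa2*, an Hsp70 best known from testis, at 1.38 (2.60-fold) higher in colon. Other small heat shock proteins had 3 of 6 called higher and 1 lower, with *Cryab*, the crystallin partner of *Hspb1*, at 1.33 (2.51-fold) and *Hspb8*, which works with *Bag3*, at -1.85. Other cytosolic Hsp40 genes had 2 of 11 called higher and 3 lower. Hsp90 co-chaperones had 2 of 14 higher, among them *Unc45a*, of a family of myosin chaperones, at 1.37 (2.58-fold), and 4 lower, among them *Chordc1* at -1.41 (2.66-fold). Hsp70 co-chaperones had 2 of 10 called higher and 1 lower, and the subunits of the TRiC chaperonin 0 of 8 higher and 1 lower. Hsf1 regulators and paralogs had 0 of 8 called higher and 1 lower. Other heat-induced Hsf1 targets had 2 of 17 called higher and 6 lower, with the collagen chaperone *Serpinh1* at 2.55 (5.87-fold) and the mitochondrial *Hspe1* at -1.26 (2.39-fold lower). The chaperones of the ER, which fold secreted proteins, had 0 of 13 called higher and 9 lower in colon, with a list median of -1.02. Over all genes 22.7% were called higher and 18.5% lower, and the median was -0.01. Of the immediate early genes, which respond within minutes to handling and stress, 6 of 10 were called higher in colon, with *Fos* at 2.22 (4.66-fold) and *Jun* at 1.63 (3.10-fold). Their part in the *Hspa1a* difference was not tested.

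The next question was whether Se and folate supply in either period changed the members. No member probe was called in any comparison of diets in either tissue, and no probe of the array was (0% called for every contrast). The study itself reported liver probes past the same fold and FDR thresholds, most of them for HH *vs.* LH, and none in colon. Why the liver counts differ was not tested. Most of the differences with an unadjusted p under 0.05 were in liver, where among others *Dnajb1* was lower in LH than in HH and LL was higher than LH for *Hspa1b*, *Dnajb1* and the second probe of *Hspa1a*. None of these passed after adjustment. Each comparison is written as the second group minus the first.

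For HH *vs.* LH in liver, the effect of the maternal diet on offspring kept on diet H, 2 of 18 member probes had an unadjusted p under 0.05, both lower in LH, where 11.9% of all probes had one. *Dnajb1* was at 0.18, -0.06, -0.20, 0.78 and -0.22 in the 5 HH mice and ran from -0.66 over -0.48 to -0.19 in LH. The mean was thus higher in HH, with 1 HH mouse at 0.78, and 2 HH mice lay inside the LH range. The difference was -0.57 (SE 0.21, 95% interval -0.99 to -0.14, limma adjusted p = 0.29), and LH was lower than the HH mouse of the same slide for 5 of 5 HH mice. Without the HH mouse at 0.78 (replicate 4) it was -0.39. The second *Dnajb1* probe differed by -0.16, in that direction for 4 of 5 HH mice. The second *Hsf1* probe was the other one, at -0.23 (95% interval -0.45 to -0.01), and the main *Hsf1* probe differed by -0.26 (95% interval -0.55 to 0.03). *Dnaja1* differed by 0.36 in the other direction (95% interval -0.06 to 0.79). The 2 probes of *Hspa8* gave -0.38 and 0.30. The members had 9 probes higher and 9 lower with a median of -0.02, against -0.01 for all probes. In all, the member intervals reached 1.08 at most.

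For HH *vs.* LL in liver, *Dnaja1* was higher in LL by 0.45 (SE 0.20, limma adjusted p = 1.00), and it was 1 of 18 member probes with an unadjusted p under 0.05, where 3.46% of all probes had one. Its values in HH were 0.41, -0.05, -0.21, -0.14 and -0.13 and ran from -0.04 over 0.48 to 0.74 in LL. The HH mouse at 0.41 was the only one near the LL median. The other 2 *Dnaja1* probes differed by 0.24 and 0.17. For HH *vs.* HL, HL *vs.* LL and HL *vs.* LH, 0 of 18 member probes had an unadjusted p under 0.05, where 4.39%, 3.07% and 1.71% of all probes had one.

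For LH *vs.* LL in liver, the effect of the post-weaning diet on offspring of dams fed diet L, 5 of 18 member probes had an unadjusted p under 0.05, all higher in LL, where 6.33% of all probes had one. These were *Dnajb1* at 0.48 (SE 0.20) and its second probe at 0.29 (SE 0.14), *Hspa1b* at 0.40 (SE 0.19), the second *Hspa1a* probe at 0.42 (SE 0.20) and the second *Hsf1* probe at 0.22 (SE 0.10). The main *Hspa1a* probe was at 0.50 (SE 0.24), higher in LL on 3 of 6 slides, and did not pass. The limma adjusted p was 0.77 for each of the 5. *Dnajb1* ran from -0.69 over -0.06 to 0.92 in LL, and 1 LL mouse lay below every LH mouse. With slide as a block, 2 of the 18 probes had an unadjusted p under 0.05, and without LL replicate 2, the mouse at 0.92, none of the 18 had one (0 of 18). LL minus LH was above 0 for 14 of 18 member probes. This comparison shares the LH mice with HH *vs.* LH, so that opposite signs in them are not separate observations.

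The interaction in liver asks whether the post-weaning diet acted differently by maternal diet, as LL minus LH minus HL plus HH. It uses the mice of the comparisons above and is not independent of them. Of the 18 member probes, 4 had an unadjusted p under 0.05, all positive, where 11.3% of all probes had one. They were *Hspa1a* at 0.82 (SE 0.35) and its second probe at 0.75 (SE 0.30), *Dnajb1* at 0.79 (SE 0.29) and the second *Hsf1* probe at 0.35 (SE 0.15). The lowest limma adjusted p was 0.33. LL replicate 2, at -1.38 for *Hspa1a*, was also the highest liver mouse for *Hspa1b*, and without it the interaction of *Hspa1a* was 0.58. This mouse was also the highest of its group for *Hsph1* (0.81), *Dnajb1* (0.92) and *Dnaja1* (0.74). Without HH replicate 4, 2 of the 18 member probes had an unadjusted p under 0.05. With slide as a block, 4 probes of the array were called for the interaction.

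**Figure D3:**
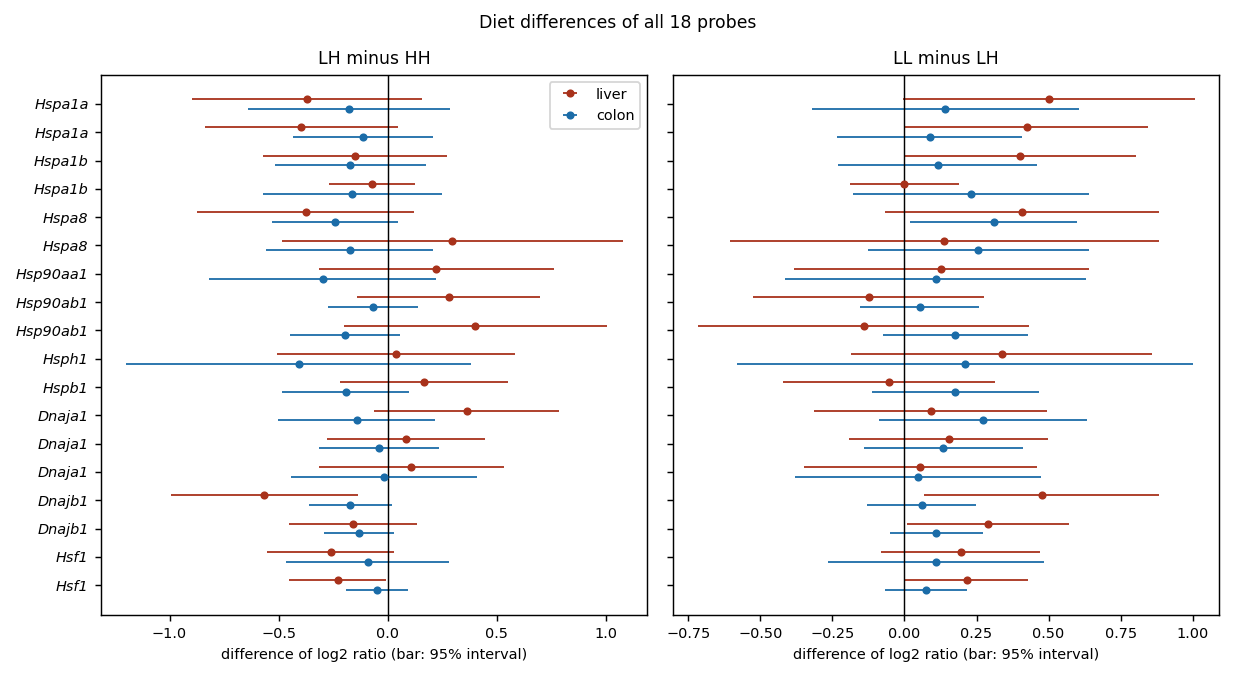
Difference between diet groups (x axis, log2 scale) for the 18 member probes (y axis), as LH minus HH and LL minus LH, with the 95% interval of the limma fit as a bar, in liver and colon. Liver intervals for *Dnajb1* in HH *vs.* LH and LH *vs.* LL leave 0 on opposite sides, and no difference passed after adjustment. Both comparisons share the LH mice.

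In colon, *Hspa8* was higher in LL than in LH by 0.31 (SE 0.14, limma adjusted p = 1.00), or 0.18 without LL replicate 6, and it was 1 of 18 member probes with an unadjusted p under 0.05, where 2.81% of all probes had one. Its values ran from -0.72 over -0.58 to -0.55 in LH and from -0.64 over -0.41 to 0.34 in LL. LH was the tighter group, and LL mice lay both within and above it. For HH *vs.* LH, HH *vs.* HL, HH *vs.* LL, HL *vs.* LL, HL *vs.* LH and the interaction, 0 of 18 member probes had an unadjusted p under 0.05, where 3.25%, 1.44%, 1.72%, 1.02%, 2.95% and 1.79% of all probes had one. With slide as a block, 1 member probe each had one for HH *vs.* LH and for the interaction. All 18 member probes were lower in LH than in HH, with a median of -0.17 against 0.00 for all probes, and all 18 were higher in LL than in LH, with a median of 0.12. These comparisons share the LH mice, and the members move together from mouse to mouse as described below, so that the 18 signs are not 18 observations. The colon mice against the male sex were in HH, HL and LL but not in LH, and their part in these signs was not tested. The widest interval for HH *vs.* LH, that of *Hsph1*, reached 1.20 on the log2 scale. Between tissues, the effect LH minus HH differed with an unadjusted p under 0.05 for 0 of 18 member probes, where 7.52% of all probes had one and 0% were called.

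Related genes of the chaperone system were compared for HH *vs.* LH in liver, with 5.85% of all genes higher and 7.94% lower at an unadjusted p under 0.05. Of the ER chaperones, 10 of 13 were higher in LH, with a list median of 0.53, and among them *Canx* was higher by 0.52 (limma adjusted p = 0.21) and *Hyou1*, the Hsp110 of the ER, by 1.36 (limma adjusted p = 0.22). Of the 10 members 0 were higher and 1 lower, with a median of -0.06, and for all genes the median was -0.02. The other heat-induced Hsf1 targets had 0 of 17 higher and 3 lower, with *Hspbap1* at -0.62 and *Hspe1* at -0.46 (limma adjusted p = 0.25 and 0.27). Hsp90 co-chaperones had 2 of 14 higher and 1 lower, with the glucocorticoid-induced *Fkbp5* at 0.63 and *Cdc37l1* at -0.27 (limma adjusted p = 0.23 and 0.29). Other cytosolic Hsp40 genes had 1 of 11 higher (*Dnaja4*, 0.29) and 1 lower (*Dnajc9*, -0.26). The Hsp70 binding protein *St13* was at 0.27 and *Hsbp1*, a small inhibitor of Hsf1, at -0.34 (limma adjusted p = 0.30 and 0.29). Clock genes of the *Dbp* phase had 5 of 10 higher, with *Tef* at 1.09 and *Ciart* at 1.53, and leukocyte markers had 5 of 10 lower, with *Cd52* at -0.75. The mean of the leukocyte markers ran from -0.24 to 0.23 in HH and from -0.54 to -0.13 in LH. Hepatocyte markers had 2 of 8 higher and 0 lower, with a mean of 1.43 in HH and 1.70 in LH, the lowest HH mouse at 1.26 and the highest LH mouse at 1.88, and erythroid markers had 0 of 4 higher and 1 lower, with a mean of 0.27 to 0.58 in HH and 0.14 to 0.35 in LH. The part of these markers in the member differences was not tested. The cold-induced *Cirbp* and *Rbm3*, whose RNA rises when the body cools, were at 0.47 (limma adjusted p = 0.55) and 0.09 (limma adjusted p = 0.88).

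Within groups the members varied more from mouse to mouse than most genes. After each group's mean was removed, *Hsph1* had the largest SD of the members in both tissues, 0.44 in liver and 0.68 in colon, which is the 95.7th and the 99.6th percentile of the genes above background. The median SD over genes was 0.20 in liver and 0.18 in colon. In liver, *Hsp90aa1* (0.43), *Hspa1a* (0.42) and *Hspa8* (0.40) also lay at or above the 93.6th percentile, and *Hsf1* was the steadiest member (0.23). Without LL replicate 6 the colon SD of *Hsph1* was 0.51. In colon, *Hsp90aa1* (0.44, or 0.32 without that mouse) and *Hspa1a* (0.39, or 0.27) followed, and *Dnajb1* (0.15) and *Hsp90ab1* (0.17) lay below the median of genes. *Hsph1* in liver was at 0.49, -0.76, -0.96, 0.41 and -0.10 in the 5 HH mice and ran from -0.81 over -0.19 to 0.33 in HL, from -0.47 over -0.20 to 0.37 in LH and from -0.62 over 0.19 to 0.81 in LL. *Hsp90aa1* was at 0.44, -0.87, -0.60, 0.22 and -0.19 in the same 5 HH mice, in nearly the same order. In colon *Hsph1* ran from -1.17 over -0.28 to 0.27 in HH, from -1.33 over -0.94 to 0.28 in HL, from -1.33 over -0.98 to 0.07 in LH and from -1.62 over -1.06 to 1.36 in LL. The range of *Hsph1* within every group was thus wider than any difference between its group means.

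Several members rose and fell together across mice of the same group. Correlations were computed over the 23 liver and 24 colon mice after removing group means, for 45 pairs of members per tissue, with two-sided permutation p-values adjusted over the 45 pairs. Each gene stood by its main probe, and pairs were not computed with the second probes, which can differ in spread. In liver, 4 pairs had an adjusted p under 0.05, all positive. *Hsp90aa1* and *Hsph1* had r = 0.86 (rho 0.81, permutation adjusted p = 0.0018), and without the 2 mice farthest from the median r = 0.83. *Hspa1a* and *Hspa1b* had r = 0.73, *Hspa1b* and *Hsph1* 0.71, and *Hspa8* and *Hsph1* 0.69 (permutation adjusted p = 0.014 for each). Removing slide means as well gave 0.92, 0.73, 0.68 and 0.74 in the same order. By rank correlation 17 liver pairs had an adjusted p under 0.05, 16 positive and 1 negative, the latter *Hspa1a* with *Hsp90ab1* (rho -0.56, permutation adjusted p = 0.047, r = -0.48). With slide as a block, that is with group and slide means removed and mice permuted within slides, 3 liver pairs passed, 2 of them among the 4. These were *Hsp90aa1* and *Hsph1*, *Hspa8* and *Hsph1*, and *Hsp90aa1* and *Hspb1*.

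In colon, 20 of 45 pairs had an adjusted p under 0.05, all positive. The slide block gave 12 pairs past the threshold, 10 of them among the 20, and without LL replicate 6 11 passed, all among the 20. Removing slide means took *Hsp90aa1* and *Hspb1* from r = 0.56 to 0.05, *Hspa1b* and *Hsf1* from 0.63 to 0.08, *Hspa1b* and *Hspa8* from 0.54 to 0.09, and *Hspa1b* and *Hspb1* from 0.61 to 0.17. The closest of the 20 were *Hsp90aa1* and *Hsph1* with r = 0.94 (rho 0.91), *Hspa1a* and *Hsp90aa1* with 0.87, *Hsp90aa1* and *Hsf1* with 0.87, and *Hspa1a* and *Hsph1* with 0.86. Without LL replicate 6 these were 0.88, 0.74, 0.82 and 0.72, and with slide means removed 0.95, 0.77, 0.74 and 0.77. *Hspb1* stood with *Hspa1a* at r = 0.71, which fell to 0.50 with slide means removed, and with *Hsf1* at 0.72, which became 0.24. *Dnaja1* and *Dnajb1* had r = 0.73 (rho 0.70), 0.82 without LL replicate 6 and 0.70 with slide means removed. *Dnaja1* and *Hsp90ab1* passed by rank (rho 0.55, permutation adjusted p = 0.035) but not by r (0.47, permutation adjusted p = 0.068). They did not pass with slide as a block (permutation adjusted p = 0.18) or by rank without LL replicate 6 (permutation adjusted p = 0.083). The r of *Dnaja1* with *Hsph1* was 0.43, and 0.66 with slide means removed. *Dnajb1* and *Hspb1* ran in opposite directions at r = -0.50 (permutation adjusted p = 0.053).

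**Figure D4:**
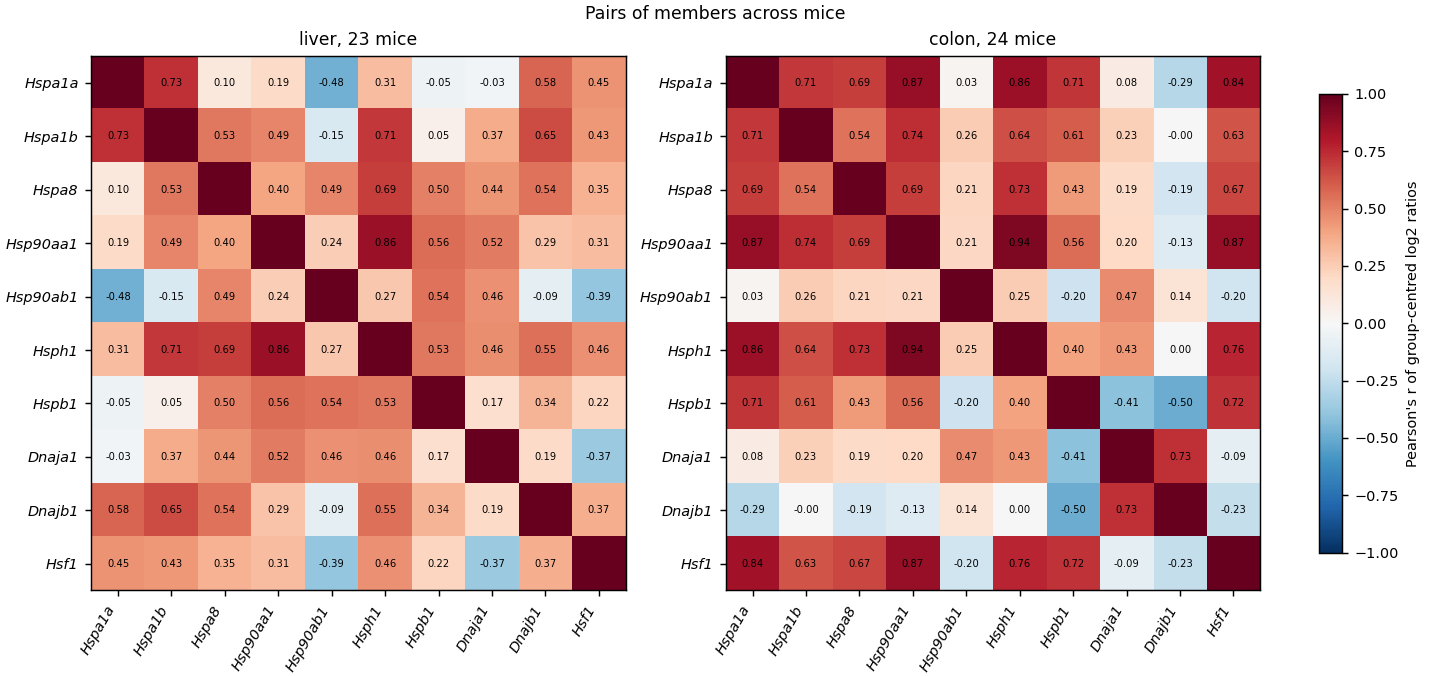
Pearson r between members across mice (colour scale from -1 to 1) after removal of group means, for liver (23 mice) and colon (24 mice), with members on both axes. *Hsph1*, *Hsp90aa1* and *Hspa1a* form the most positive block in colon, and *Dnaja1* with *Dnajb1* is at 0.73.

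The members' pairs were set beside those of all genes. In liver 14 of 45 member pairs had r over 0.5 and 15 with slide means removed, where 8.14% and 9.36% of all pairs of genes above background did. In colon 20 member pairs had r over 0.5, 16 without LL replicate 6 and 18 with slide means removed, where 13.9% and 5.94% of all pairs did in the first and the last. The median r of member pairs was 0.40 in liver and 0.43 in colon, against 0.02 and 0.00 for all pairs. These shares are descriptions of the chosen list.

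Slides carried much of the colon variation. The share of variance between slides, after group means were removed, had a median over genes of 40.2% in liver and 59.5% in colon. Means of a few mice per slide differ by sampling alone, so that some share is present without any slide effect. *Hsf1* in colon had 81.3%. Its slide means were 0.10, 0.05, -0.09 and 0.09 on the first 4 colon slides and 0.58 and 0.65 on the last 2. *Hspa1a* followed with 0.81 and 1.13 on those slides against 0.29 to 0.67 before, and *Hspb1* with 0.17 and 0.17 against -0.28 to -0.12. *Hsph1* was at -0.55 and 0.11 there and at -1.11 to -0.70 on the first 4, with 38.7% of its variance between slides. Without LL replicate 6, the means on the last slide were 0.52 for *Hsf1*, 0.85 for *Hspa1a*, 0.10 for *Hspb1* and -0.31 for *Hsph1*. The slide shares of *Hspa1a* (58.0%) and *Hspb1* (59.4%) were near the median over genes. Not every member rose. *Dnaja1*, *Dnajb1* and *Hsp90ab1* had their lowest slide mean on the earlier of the last 2 slides, at -1.74, 0.31 and -0.43. The 4 groups were represented equally on every slide. The second *Hsf1* probe had a narrower range in colon, 0.20 to 0.62, than the main one, -0.23 to 1.02.

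**Figure D5:**
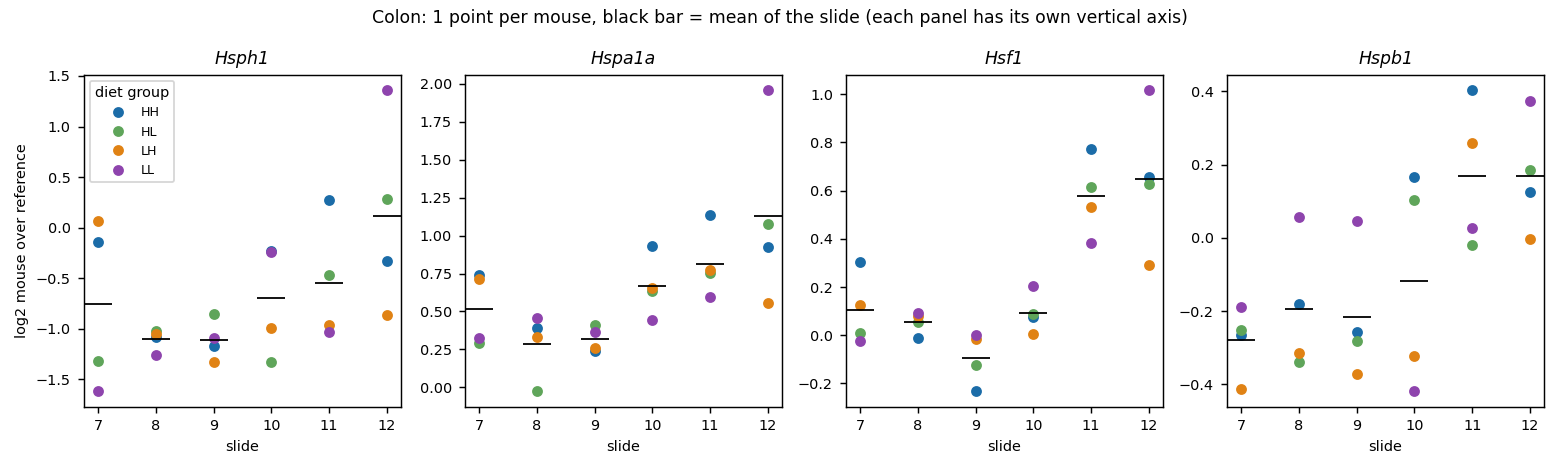
Log2 ratio of mouse over reference (y axis) for members in colon by slide (x axis, 4 mice per slide, 1 of each group), with the slide mean as a line. *Hsf1* and *Hspb1* step up on the last 2 slides, and *Hsph1* spreads most on the last slide, where LL replicate 6 lies at 1.36.

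The genes most alike to *Hsph1* were found among all genes above background, as a description without a test. In liver (23 mice, 13612 genes) they were *Hspa4l*, another Hsp110, with r = 0.91 (0.90 with slide means removed), *Ttc23* with 0.83, the calcium pump *Atp2a2* with 0.83, *Apba3* with 0.82 and *Wnt5b* with 0.82. In colon (24 mice, 15148 genes) they were *Noc3l*, a factor of ribosome assembly, with 0.95 (0.93 with slide means removed and 0.91 without LL replicate 6), *E2f6* with 0.88, *Fancg* with 0.88, the nuclear export receptor *Xpo1* with 0.87 and *Hnrnpm* with 0.87. The other 4 colon genes were at 0.76 to 0.79 without LL replicate 6. All share the same arrays and slides.

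Relations of *Hsph1* and *Hspb1* with genes of the other lists were computed across mice in the same way, with permutation p-values adjusted over the 1620 liver and 1650 colon relations between members and listed genes. In colon 31 of 165 listed genes had an adjusted p under 0.05 with *Hsph1*, and in liver 2 of 162. The slide block left 0 and 1, the latter *Hspa4l*, and without LL replicate 6 the colon count was 16, 14 of them among the 31. With 20000 permutations no single relation could pass alone after adjustment, so that a count of 0 does not show absence. The share of all genes passing with a member was not computed, and 13.9% of all colon gene pairs had r over 0.5. The liver ones were *Hspa4l* and *Chordc1*, an Hsp90 co-chaperone induced by heat, at r = 0.79. In colon, *Ppid*, a cyclophilin that binds Hsp90, had r = 0.83, *Hspa4l* 0.79 and *Chordc1* 0.77 with *Hsph1*, and 0.76, 0.64 and 0.77 without LL replicate 6. Among the clock genes of colon, 4 of 5 of the *Arntl* phase had a positive r with *Hsph1* at an adjusted p under 0.05, and 5 of 10 of the *Dbp* phase a negative one. *Nfil3* had r = 0.69, *Arntl* 0.64, *Per1* -0.71 and *Ciart* -0.71. The list medians of r were 0.64 and -0.57, and 0.61 and -0.61 with slide means removed, where none of the 15 clock genes passed with slide as a block. Without LL replicate 6, 2 of 5 and 5 of 10 passed, *Nfil3* had r = 0.70, *Arntl* 0.60, *Per1* -0.61 and *Ciart* -0.73, and the medians were 0.55 and -0.58. *Rbm3* had r = -0.68 and *Cirbp* -0.52 (permutation adjusted p = 0.011 and 0.093), and without LL replicate 6 -0.57 and -0.48 (permutation adjusted p = 0.072 and 0.14). In liver *Arntl* had r = 0.43 and *Dbp* -0.43, neither past the threshold. *Hspb1* in colon had 53 of 165 genes past the threshold, 0 of them among the 15 clock genes, but 0 of 165 with slide as a block and 33 without LL replicate 6. *Cryab* was its closest at r = 0.88 (0.71 with slide means removed), *Myh11* of smooth muscle had 0.79 (0.72) and *Krt20* of the epithelium 0.79 (0.57), and *Rbm3* had -0.71, which became -0.15 with slide means removed. Markers of colon epithelium had 5 of 10 genes past the threshold with *Hspb1* in colon, all positive, and those of smooth muscle 3 positive and 2 negative of 10. In liver 2 listed genes passed with *Hspb1*, and 0 with slide as a block. Genes named here beyond *Cirbp* and *Rbm3* were chosen after their values were seen.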

How the data were processed

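Per the file headers, Feature Extraction 10.10.1.1 read the arrays. For every spot the authors deposited unnormalized median intensities of signal and local background in Cy3 (mouse) and Cy5 (common reference), and the processed intensity of the scanner software. A deposited table of log2 values, made per the labels with R 3.0.2 and limma, matched reference over mouse after loess without background correction (correlation with mouse over reference -0.9997 or lower). No dye was swapped. The reference is a pool of RNA from intestine and liver in one source and RNA of a pregnant mouse with foetus in another, so that zero has no meaning of its own.

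Here R 4.3.3 and limma 3.58.1 were used. A local background above its spot and above 2 times the median background of its array was set to that median, since without this 3 liver arrays and 1 colon array had narrowed ratios. Then normexp (offset 50) and global loess were applied, without control and outlier spots. Of 41174 probes, 27050 were named by accession through the RefSeq gene table. A gene stands by its probe with the highest mean Cy3, and other probes are given where they differ in sign or by over 0.5. Each tissue was fitted as 4 groups and tissues were compared in 1 fit of all 8 groups. The number of arrays limits the precision, and p-values measure the spread between these mice, whose litters are not given in the sources used here.

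Replicate numbers follow the slides, each a shared batch. Deviations of same-slide mice from their group means had a median correlation across probes of 0.15 in liver (33 pairs, 18 over 0.1) and 0.36 in colon (36 pairs, 34 over 0.1), against -0.04 and -0.13 between slides, and slide as a replicate block was an alternative. Others were background corrections, normalizations, a filter on dim probes, the samples in the fit, array weights, and each mouse left out. Correlations used genes well above background on at least 0.5 of the arrays, with 100000 permutations for member pairs and 20000 for other relations. From each related list the called genes, at most 4, or else the 2 with the lowest p in HH *vs.* LH of the liver could be named, with exceptions stated. Scripts were tested on simulated data. Members and lists were chosen with earlier results of these data known.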

Additional observations from a re-analysis of the deposited data

Results flagged for a closer look

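In 80 groups of a member in one tissue and diet, 4 had a mouse far from the rest, where the gap to the nearest mouse exceeded the critical share of the group's range. Chance gives about 1 such group in 20. For *Dnaja1* in liver HH, replicate 1 was at 0.41 and the next mouse at -0.05, a gap of 0.733 of the range. For *Dnaja1* in liver LH, replicate 4 was at -0.25 and the next at 0.27 (0.679 of the range), and this mouse had the highest level of adipocyte markers in the liver, a mean log2 ratio of 1.48. For *Hspa1a* in colon LL, replicate 6 was at 1.96 and the next at 0.60 (0.834 of the range), whereas the second *Hspa1a* probe of this mouse was at 0.97. For *Hsph1* in colon LH, replicate 1 was at 0.07 and the next at -0.87 (0.669 of the range).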

How the results depend on the processing

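The differences between tissues of *Hspa1a* (3.22 to 4.09), *Hspa1b* (1.15 to 1.88) and *Dnaja1* (-1.75 to -1.29) were called under all 58 settings. *Hsph1* (-0.76 to -0.16) and *Dnajb1* (0.55 to 1.05) were called under 33 of 58 each. *Hspb1* and *Hsf1* were called under median centring, at 0.73 and 0.72, where the median of all probes shifted to -0.19. With normexp offset 0, the differences of *Hspa8*, *Hsp90aa1* and *Hsp90ab1* turned to 0.11, 0.0041 and 0.23, with median centring to 0.028, 0.022 and 0.32, and in the Cy3 channel alone to 0.12, 0.022 and 0.28. That of *Hsp90ab1* also turned to 0.047 with processed signals and to 0.011 without the mice against male sex, a grouping set after the data were seen. Probes called between tissues numbered 20275 with processed signals and 22800 with median centring, against 12411.

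With slide as a replicate block, the liver interaction had 4 probes called, 2 member probes had an unadjusted p under 0.05 for LH *vs.* LL in liver, and 1 each did for HH *vs.* LH and the interaction in colon. In colon 12 pairs of members passed with the block against 20. Listed genes that passed with *Hsph1* fell to 0 in colon and 1 in liver, and those that passed with *Hspb1* to 0 and 0, under the limit set by the permutations given above. Without Colon LL replicate 6 these colon counts were 11 pairs, 16 genes and 33 genes. The block changed no other diet call. Both settings for pairs and listed genes were chosen after the data were seen. Probes called for HH *vs.* LH in liver were 5 with the repeat array as a mouse of its own, 17 with only those groups in the fit, 99 with all 8 groups and 2 with array weights, and for the liver interaction 50 with all 8 groups and 512 with array weights. The members named for diet differences were called under none of their 36 or 37 settings.

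Of the 18 member probes, the number with an unadjusted p under 0.05 moved as follows, in the order of the comparisons named. It was 1 for HH *vs.* LH in liver without background correction, with normexp offset 0, without the background repair, with the filter on dim probes and with the repeat array as a mouse, 5 with only those groups and 7 with array weights. For LH *vs.* LL in liver it was 3 without background correction, 1 with normexp offset 0, 2 without the repair, 2 with processed signals, 3 with the deposited table and 1 without the mice against male sex. For HH *vs.* HL in liver it was 1 with median centring, 1 with only those groups and 2 with array weights. For HH *vs.* LL in liver it was 4 with median centring, 0 with Cy3 alone and 0 with array weights. For HL *vs.* LL in liver it was 1 with median centring and 2 with Cy3 alone. For HL *vs.* LH in liver it was 1 with array weights. For the liver interaction it was 2 without the repair and 7 with Cy3 alone. For HH *vs.* LH in colon it was 2 without the repair, 1 with processed signals, 1 with median centring, 2 with Cy3 alone and 1 with only those groups. For HL *vs.* LH in colon it was 1 without background correction, 1 with processed signals, 2 with median centring, 1 with the deposited table and 1 with Cy3 alone. For LH *vs.* LL in colon it was 2 with median centring, 0 with Cy3 alone, 0 with all 8 groups, 0 with array weights and 2 without the mice against male sex. For HH *vs.* HL in colon and for the colon interaction it was 1 and 1 with Cy3 alone, and for the interaction also 1 without the mice against male sex.

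Leaving out each mouse in turn gave 0 to 2 probes called for HH *vs.* LH in liver and 7 to 9 member probes called between tissues. Member probes with an unadjusted p under 0.05 ranged in liver from 0 to 4 for HH *vs.* LH, 0 to 2 for HH *vs.* HL, 0 to 3 for HH *vs.* LL, 0 to 3 for HL *vs.* LL, 0 to 6 for LH *vs.* LL, 0 to 1 for HL *vs.* LH and 2 to 6 for the interaction. In colon they ranged from 0 to 1 for HH *vs.* LH, 0 to 1 for HH *vs.* LL, 0 to 2 for LH *vs.* LL, 0 to 2 for HL *vs.* LH and 0 to 1 for the interaction. The lowest for LH *vs.* LL in liver came without LL replicate 2. The cause of these changes was not tested.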
